A study of Mus musculus with 7 samples.

Results

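YAP and its target genes were followed in the mouse extrahepatic bile duct (EHBD) after obstruction. The set held 10 of the 56065 genes in the count table. They were chosen by name, through their Ensembl identifiers: Yap1 itself, and Ccn1, Ccn2, Ankrd1, Amotl2, Axl, Lats2, Ajuba, Crim1 and Ptpn14. The rule itself used names and no measured values. The members and the lists below were, however, chosen with earlier results of these data known. Shares set beside those of all genes are therefore description only. Whole EHBD tissue was collected 48 hours after bile duct ligation (BDL) or sham surgery and its polyadenylated RNA was sequenced in bulk. The 4 BDL libraries came from WT C57BL/6 mice (C57BL/6J in the study's methods) whose distal EHBD was ligated, with males in replicates 1 and 2 and females in replicates 3 and 4. The 3 sham libraries came from WT mice of that strain that had a laparotomy without ligation, with a female in replicate 1 and males in replicates 2 and 3. The study used adult animals, and the labels carry no age. The study counts its samples at this time in mice, but the labels do not tie each library to an animal, and p-values measure the spread between libraries.

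YAP is a transcriptional coactivator at the end of the Hippo pathway. When the MST and LATS kinases are active they phosphorylate YAP and its relative TAZ, which then stay in the cytoplasm or are degraded. When the kinases are quiet, as on stiff matrix or after tissue damage, YAP enters the nucleus and switches on genes through the TEAD family of DNA-binding proteins. In the liver and bile ducts YAP is known for its part in cholangiocyte identity and in duct growth after injury. The activity of YAP is set largely by phosphorylation and location, which RNA levels do not measure.

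In GRCm39, Yap1 lies on chromosome 9 (7932000 to 8004661, minus strand) and Amotl2 on the same chromosome (102593836 to 102610617, plus strand). The CCN genes Ccn1 and Ccn2 lie on chromosome 3 (145352720 to 145355738, minus strand) and on chromosome 10 (24471333 to 24474900, plus strand). Ankrd1 lies on chromosome 19 (36089352 to 36097506, minus strand), Axl on chromosome 7 (25456535 to 25488329, minus strand) and Crim1 on chromosome 17 (78507601 to 78684021, plus strand). Lats2 lies on chromosome 14 (57926960 to 57995845, minus strand), Ajuba on the same chromosome (54804787 to 54815027, minus strand) and Ptpn14 on chromosome 1 (189460446 to 189608892, plus strand). Antisense transcripts overlap exons of Yap1, Ccn1, Ccn2, Ankrd1, Crim1 and Ptpn14 and cannot be separated from them without strand. In that order they were listed at no more than 0.0982%, 6.13%, 2.27%, 3.06%, 0.409% and 1.36% of the level of these genes. Fez2, which also overlaps Crim1, is given below. Lats2 shares 2955 exon bases with Gm49361 on the same strand, listed at no more than 0.1% of its level. Gm63514, antisense to Lats2, was not in the count table.

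The letters that TEAD proteins bind were sought upstream of the canonical GENCODE transcripts of Yap1, Ccn1, Ankrd1, Amotl2, Axl, Lats2, Ajuba, Crim1 and Ptpn14. The window was the 250 bases before the start of each of these transcripts in the mouse genome GRCm39. For Amotl2 and Lats2 the window lay inside the annotated gene, because the canonical transcript starts within it, and that of Ajuba overlapped its gene. The letters searched were GGAATG on both strands. They were found in 5 of the 9 windows, against 12.1% of 21770 protein-coding promoters (2637 promoters). Amotl2 and Ptpn14 held 2 matches each, and Yap1, Ccn1 and Axl held 1 each. At least 2 matches stood in 0.937% of all promoters (204 promoters). The windows of Ankrd1, Lats2, Ajuba and Crim1 held none. The AP-1 letters TGANTCA, found in 6.17% of promoters, and the CArG box bound by SRF, found in 1.4%, were in 0 of the 9 windows. A match of letters is a description of the sequence and not a measured binding site.

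The windows of 4 genes are given here because the results turn on these genes. They belong to Ajuba and Ptpn14, whose change passed the test, to Ccn1, and to Ankrd1, which had the highest fitted fold change of the 10. Each is written 5′ to 3′ on the strand of the gene and ends at the base before the transcript start. Capitals mark the matches, which read cattcc where the match is on the opposite strand.
Ccn1 (chr3:145355739-145355988, minus strand): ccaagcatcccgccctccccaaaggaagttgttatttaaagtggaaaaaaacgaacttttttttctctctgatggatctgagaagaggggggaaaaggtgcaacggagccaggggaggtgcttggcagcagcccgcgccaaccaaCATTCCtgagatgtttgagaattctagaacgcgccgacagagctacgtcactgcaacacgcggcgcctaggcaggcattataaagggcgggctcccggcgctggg
Ankrd1 (chr19:36097507-36097756, minus strand): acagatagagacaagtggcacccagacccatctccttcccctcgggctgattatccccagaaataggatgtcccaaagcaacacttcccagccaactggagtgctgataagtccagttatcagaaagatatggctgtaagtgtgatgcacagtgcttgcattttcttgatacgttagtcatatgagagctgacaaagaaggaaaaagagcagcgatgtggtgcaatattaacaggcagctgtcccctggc
Ajuba (chr14:54815016-54815265, minus strand): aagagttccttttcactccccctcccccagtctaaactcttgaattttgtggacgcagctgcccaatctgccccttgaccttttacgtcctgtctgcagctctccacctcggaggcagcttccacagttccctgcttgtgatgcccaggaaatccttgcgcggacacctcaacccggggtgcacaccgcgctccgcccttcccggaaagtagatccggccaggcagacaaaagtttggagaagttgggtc
Ptpn14 (chr1:189460196-189460445, plus strand): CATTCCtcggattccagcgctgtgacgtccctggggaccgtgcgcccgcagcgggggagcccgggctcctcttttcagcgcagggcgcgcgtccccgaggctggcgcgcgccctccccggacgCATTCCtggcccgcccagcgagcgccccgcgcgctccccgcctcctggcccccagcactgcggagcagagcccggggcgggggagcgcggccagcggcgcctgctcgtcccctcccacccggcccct
In Ccn1 the single match lay 105 to 100 bases before the start, on the opposite strand. In Ptpn14 both matches were on the opposite strand, at 250 to 245 and 127 to 122 bases before the start.

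**Figure D1:**
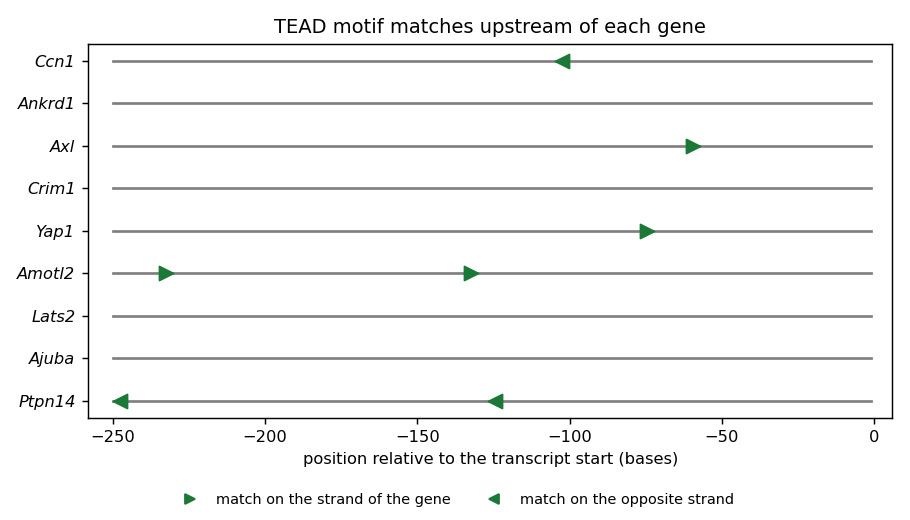
Position of each TEAD match, in bases relative to the transcript start, in the 250 bases upstream of the canonical transcripts of 9 of the genes. Arrowheads point right for the strand of the gene and left for the opposite strand. Amotl2 and Ptpn14 carried 2 matches each, and Ankrd1, Lats2, Ajuba and Crim1 carried none in this window.

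Levels are given as CPM, the counts of a gene scaled to library size, with library sizes adjusted by the trimmed mean of M values (TMM), and fold changes as log2 of BDL over sham from edgeR's quasi-likelihood test with sex as a term. A positive value means a higher level in BDL. Adjusted p-values are Benjamini-Hochberg values over the 25209 genes that summed to 10 or more counts across the libraries, with a threshold of 0.05. All 10 genes passed this filter. The test called 2 of the 10 higher in BDL (11.8% of all genes tested), called 1 lower (11% of all genes) and left 7 uncalled. In either direction that was 3 of 10, against 22.8% of all genes, a share near the background for a list this short. The background here and below includes genes with few counts. No share was computed for genes as abundant as these or as those of the lists below. The 4 BDL libraries did not overlap the 3 sham libraries in 5 of the 10 genes (36.6% of all genes), with 3 higher (18.7%) and 2 lower (18%). The median log2 fold change of the 10 genes was 0.10, and that of all genes tested was -0.01. The genes therefore did not move as a block, and each is described by its own values.

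Library totals ran from 48882420 to 61291821 counts. Together, 16 listed pancreatic acinar genes took 0.00232% to 9.85% of counts in BDL libraries and 10.5% to 38.9% in sham libraries. The 11 listed hepatocyte genes in the count table took 0.00881% to 2.85% in BDL and 0.0512% to 0.154% in sham. Acinar and hepatocyte genes outside these lists are not in these shares. Summed over fixed marker lists, cholangiocyte markers lay between 3346 and 5562 CPM in BDL and between 2532 and 3663 CPM in sham (3 of 7 higher and 1 lower by the test). Of all genes tested, 11.8% were called higher and 11% lower. Fibroblast markers lay between 5521 and 8100 CPM in BDL and between 3722 and 6179 CPM in sham (3 of 7 higher, 2 lower). Smooth muscle and pericyte markers lay between 156.2 and 222.9 CPM in BDL and between 267.3 and 511.8 CPM in sham (0 of 5 higher, 2 lower), and leukocyte markers between 72.0 and 105.9 CPM in BDL and between 153 and 275.9 CPM in sham (0 of 5 higher, 3 lower). Mesothelial markers lay between 549 and 1148 CPM in BDL and between 229.9 and 358.4 CPM in sham (1 of 4 higher, which was Msln, and 3 lower). Cycling markers lay between 470.9 and 520.4 CPM in BDL and between 35.1 and 58.1 CPM in sham (4 of 4 higher). Adipocyte markers lay between 20.1 and 295.1 CPM in BDL and between 520.2 and 3211 CPM in sham (0 of 4 higher, 2 lower), and Schwann cell markers between 4.09 and 12.9 CPM in BDL and between 17.6 and 39.6 CPM in sham (0 of 3 higher, 2 lower). Endothelial markers lay between 699 and 1179 CPM in BDL and between 690.4 and 1043 CPM in sham (0 of 5 higher, 2 lower). No marker of these lists was at 0 in every library of a group. In bulk tissue, fewer cells of a type and less RNA per cell cannot be told apart, and the part of these shifts in the changes below was not tested.

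No difference in Yap1 mRNA was detected between the groups. It had 34.9, 38.4, 29.0 and 35.5 CPM in BDL replicates 1 to 4, against 39.2, 33.6 and 31.1 CPM in sham replicates 1 to 3. The groups overlapped, and their means were 34.5 ± 3.95 CPM in BDL and 34.6 ± 4.17 CPM in sham (SD, n = 4 and 3). The log2 fold change was -0.01 (SE 0.16, 95% interval -0.38 to 0.37, edgeR adjusted p = 0.979). Its relative TAZ, encoded by Wwtr1, averaged 147.3 ± 31.5 CPM in BDL and 121.6 ± 17.1 CPM in sham. Its groups overlapped, and the difference on the log2 scale was 0.32 (SE 0.16, edgeR adjusted p = 0.191).

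The 2 matricellular targets, Ccn1 and Ccn2, are secreted proteins that bind integrins and growth factors, and Ccn2 (connective tissue growth factor) is widely known for its part in fibrosis. Ccn2 had the clearest change of the set. It reached 265.5, 224.1, 136.9 and 237.1 CPM in BDL, against 19.2, 31.5 and 51.5 CPM in sham. Every BDL library stood above every sham library. The log2 fold change was 2.84 (SE 0.32, 95% interval 2.09 to 3.60, edgeR adjusted p = 0.00155), or 7.16-fold. Ccn2 passed the test under each of the 18 alternatives, with log2 fold changes from 2.56 to 3.11.

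Ccn1 differed less between the groups. It had 57.5, 46.5, 26.6 and 101.1 CPM in BDL, against 15.2, 26.2 and 42.9 CPM in sham. BDL replicate 3 lay below sham replicate 3, so the groups overlapped, and the means of 57.9 ± 31.5 CPM in BDL and 28.1 ± 14.0 CPM in sham carried a wide spread. The log2 fold change was 1.14 (SE 0.54, 95% interval -0.12 to 2.41, edgeR adjusted p = 0.170). It passed with DESeq2 (1.11, adjusted p = 0.0442, 31.9% of all genes called) and without the filter on low counts (1.15, adjusted p = 0.0245, 19.6% of all genes called). Leaving out sham replicate 1 gave 0.59 and leaving out BDL replicate 4 gave 0.65, and neither passed (edgeR adjusted p = 0.536 and 0.0837).

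The ratio of Ccn2 to Ccn1 counts within a library does not depend on how libraries are scaled. It was 4.62, 4.82, 5.15 and 2.34 in BDL replicates 1 to 4, against 1.26, 1.20 and 1.20 in sham replicates 1 to 3. The ratio was thus nearly the same in the 3 sham libraries while Ccn1 itself varied between them, and it was higher in each BDL library, least so in BDL replicate 4. This ratio was chosen after the values were seen and is given with no test.

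Ankrd1 encodes a nuclear ankyrin-repeat protein, best known in striated muscle and a standard readout of YAP activity in other cells. Per kilobase of exon it was the least abundant of the 10 genes in sham EHBD. It had 5.41, 6.16, 11.5 and 21.2 CPM in BDL, against 0.27, 0.326 and 3.25 CPM in sham, from 359, 336, 698 and 1207 counts in BDL and 14, 21 and 121 counts in sham. All 4 BDL libraries were above all 3 sham libraries, but sham replicate 3 stood far above the other sham libraries and the BDL libraries were widely spread. The log2 fold change was 2.94 (SE 1.17, 95% interval 0.19 to 5.68), with an unadjusted p of 0.039 and an edgeR adjusted p of 0.114. The value rested on single sham libraries. Without sham replicate 3 the log2 fold change was 4.93 and passed (edgeR adjusted p = 0.00803), and without sham replicate 1 it was 1.71 and did not. It also passed with DESeq2 (2.91, adjusted p = 0.0313), limma-voom (3.84, adjusted p = 0.0160, 26.2% of all genes called), no filter on low counts (2.95, adjusted p = 0.00574) and no sex term (3.13, adjusted p = 0.0482). Summed over 8 striated muscle markers, the BDL libraries had 2.16 to 5.68 CPM, and sham replicates 1 to 3 had 10.6, 2.97 and 31.8 CPM. Tnnt2, a troponin gene, made up 27.9 CPM of the last value, and the other 7 markers summed to 0.422 to 1.89 CPM in BDL and to 4.08, 1.27 and 3.89 CPM in sham replicates 1 to 3. The part of muscle RNA in the Ankrd1 values was not tested.

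**Figure D2:**
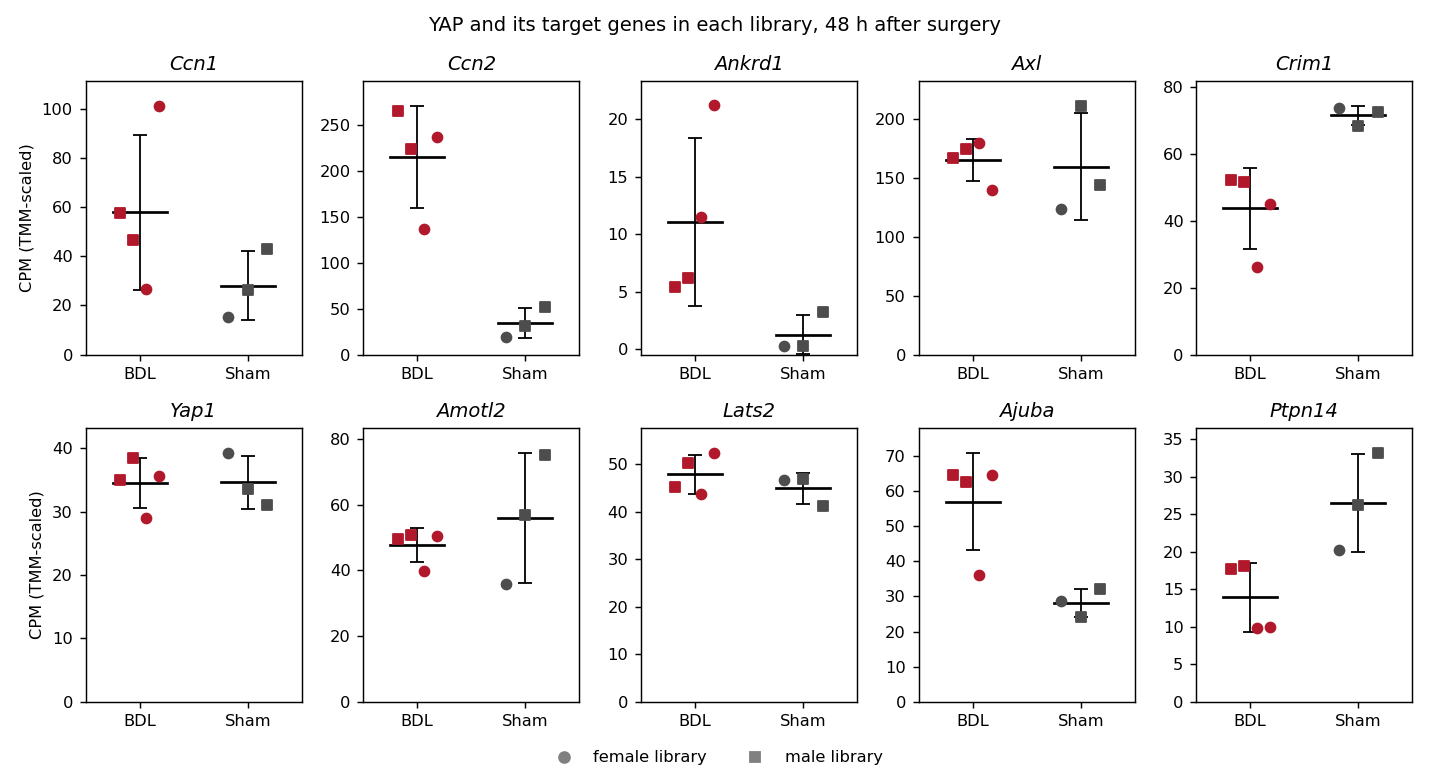
Abundance in CPM (TMM-scaled) of the 10 genes in every library, BDL left and sham right in each panel, with circles for female and squares for male libraries, and the mean and SD in black. The groups separate for Ccn2, Ankrd1 and Ajuba (BDL above sham) and for Crim1 and Ptpn14 (BDL below sham), and overlap for the other 5 genes.

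The set holds a pair of cell-surface proteins, Axl and Crim1. Axl is a receptor tyrosine kinase of the TAM family that is activated by the ligand Gas6. Axl had 167.1, 174.5, 179.9 and 140.2 CPM in BDL, against 124.1, 211.3 and 143.7 CPM in sham. The sham libraries enclosed all BDL libraries, and the log2 fold change was 0.11 (SE 0.21, 95% interval -0.38 to 0.60, edgeR adjusted p = 0.739). Gas6 had 740.8, 546.4, 719.9 and 751.4 CPM in BDL, against 1088, 1222 and 969 CPM in sham. Its groups did not overlap, with BDL lower, but the log2 fold change of -0.69 (SE 0.24, adjusted p = 0.0812) did not pass with edgeR, although it passed with DESeq2 (adjusted p = 0.000952). The receptor and its ligand thus differed in whether the groups separated.

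Crim1 is a transmembrane protein with cysteine-rich repeats that binds bone morphogenetic proteins. It had 52.0, 51.5, 26.2 and 44.9 CPM in BDL, against 73.8, 68.4 and 72.4 CPM in sham. All BDL libraries were below all sham libraries, and sham libraries lay close together (71.5 ± 2.79 CPM, SD, n = 3) while BDL libraries spread more widely (43.7 ± 12.1 CPM, n = 4). The log2 fold change of -0.69 (SE 0.22, 95% interval -1.21 to -0.18) just missed the threshold (edgeR adjusted p = 0.060). It passed under 6 of the 18 alternatives, DESeq2 among them (adjusted p = 0.0166). Crim1 shares 123 exon bases with Fez2 on the opposite strand, which had 26.4 to 51.4 CPM, and the library kit does not mark strand.

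The remaining members act back on the pathway. Amotl2 holds YAP at cell junctions and in the cytoplasm, Lats2 is a kinase that phosphorylates YAP, Ajuba is a LIM protein that restrains LATS kinases, and Ptpn14 is a phosphatase that binds YAP and keeps it out of the nucleus. Amotl2, Lats2 and Ptpn14 thus restrain YAP and Ajuba favours it. The 4 genes did not move together.

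Ajuba had 64.5, 62.5, 36.2 and 64.8 CPM in BDL, against 28.7, 24.1 and 32.0 CPM in sham. All BDL libraries were higher, with BDL replicate 3 only just above the highest sham library. Ajuba rose in BDL, by 1.03 on the log2 scale (SE 0.23, 95% interval 0.48 to 1.58, edgeR adjusted p = 0.0197), or 2.05-fold. The call was lost when sham replicate 1, 2 or 3 or BDL replicate 1 or 2 was left out (adjusted p = 0.0529, 0.0699, 0.0606, 0.0729 and 0.0574), with log2 fold changes between 0.88 and 1.18, and it held without BDL replicate 3 or 4.

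Ptpn14 fell. It had 17.8, 18.1, 9.82 and 9.96 CPM in BDL, against 20.2, 26.2 and 33.2 CPM in sham. No BDL library reached the lowest sham library, and the log2 fold change was -0.85 (SE 0.16, 95% interval -1.22 to -0.47, edgeR adjusted p = 0.0100). The call was lost without sham replicate 1 (-0.73, adjusted p = 0.0575). The 2 female BDL libraries (replicates 3 and 4) were below the 2 male ones, and the female sham library was the lowest of the sham libraries.

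Amotl2 had 49.7, 50.7, 39.9 and 50.5 CPM in BDL, against 35.8, 57.0 and 75.3 CPM in sham. The sham libraries enclosed the BDL libraries, and the log2 fold change was -0.11 (SE 0.21, 95% interval -0.60 to 0.38, edgeR adjusted p = 0.726). Lats2 had 45.2, 50.3, 43.7 and 52.4 CPM in BDL, against 46.7, 46.9 and 41.2 CPM in sham, and its log2 fold change was 0.09 (SE 0.14, 95% interval -0.23 to 0.41, adjusted p = 0.685). Neither separated the groups. For these genes, for Yap1 and for Axl, a p that misses the threshold does not show that the groups are equal, and the intervals bound what remains possible.

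**Figure D3:**
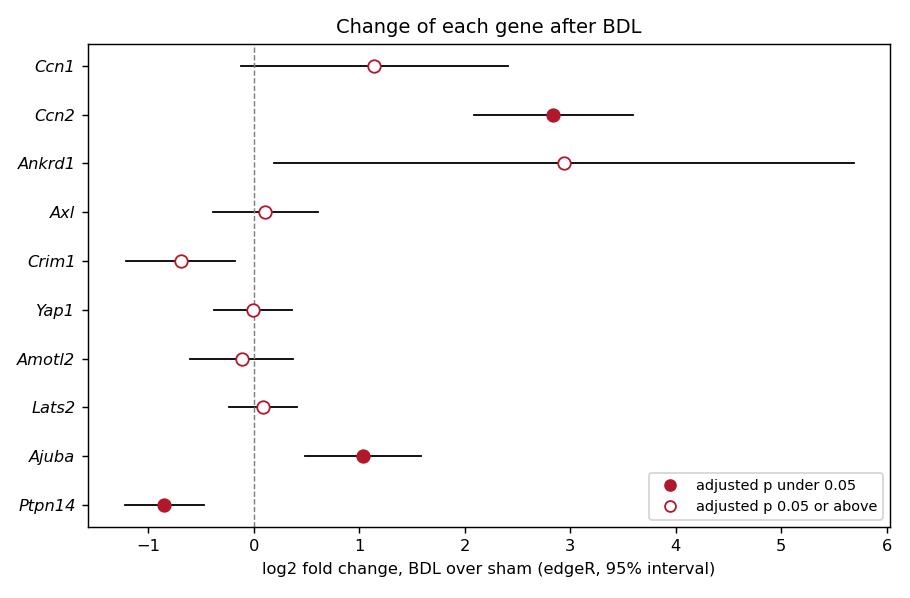
Log2 fold change of BDL over sham for each of the 10 genes with its 95% interval (edgeR). Filled points passed the adjusted threshold of 0.05 (Ccn2 at 2.84, Ajuba at 1.03 and Ptpn14 at -0.85) and open points did not. The interval of Ankrd1 is the widest, from 0.19 to 5.68.

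Divided by the merged exon length of each gene, levels can be set roughly beside each other. This length joins the exons of all annotated transcripts and can exceed that of the transcripts expressed. The order between genes is therefore approximate. In BDL the order of mean CPM per kilobase was Ccn2 (67.8 ± 17.4), Ccn1 (28.5 ± 15.5), Axl (18.0 ± 1.92), Ajuba (15.0 ± 3.66), Amotl2 (6.76 ± 0.734), Crim1 (6.31 ± 1.75), Lats2 (4.57 ± 0.395), Ankrd1 (3.71 ± 2.44), Yap1 (3.68 ± 0.42) and Ptpn14 (1.01 ± 0.338). In sham it was Axl (17.4 ± 4.99), Ccn1 (13.8 ± 6.87), Ccn2 (10.7 ± 5.12), Crim1 (10.3 ± 0.4), Amotl2 (7.94 ± 2.80), Ajuba (7.44 ± 1.05), Lats2 (4.29 ± 0.307), Yap1 (3.70 ± 0.445), Ptpn14 (1.93 ± 0.473) and Ankrd1 (0.429 ± 0.571). Ccn2, behind Axl and Ccn1 in sham, headed the list in BDL, and Ankrd1 stood last in sham and just above Yap1 in BDL. Most neighbours in these orders had overlapping libraries. Between neighbours the ranges were separate only for Ajuba above Amotl2 and Yap1 above Ptpn14 in BDL, and for Ajuba above Lats2, Yap1 above Ptpn14 and Ptpn14 above Ankrd1 in sham.

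The libraries also differed within their groups. BDL replicate 3 was the lowest BDL library in 8 of the 10 genes. Sham replicate 1 was the lowest sham library in 6, while sham replicate 3 was the highest in 6. The same order was not counted over all genes, so it is not shown to be particular to the 10. Sham replicate 3 had the largest acinar share (38.9% of counts) and a TMM factor of 0.6082, against 1.025 to 1.172 for the other libraries. The part of either in these levels was not tested.

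Sex was tested in the same fit. With edgeR, 0 of the 10 genes passed the test between female and male libraries (0.0198% of all genes called), and 1 did at an unadjusted p under 0.05. That gene was Ptpn14, with a female minus male log2 difference of -0.73 (SE 0.16, unadjusted p = 0.00249, edgeR adjusted p = 0.946). DESeq2 gave a similar difference of -0.72 and passed it (adjusted p = 0.0428, 0.571% of all genes called). The response to BDL was called different between the sexes for 0 genes by edgeR (0% of all genes), against 1742 at an unadjusted p under 0.05. Among the 10 genes, Ankrd1 alone had an unadjusted p under 0.05 in this test, with a log2 difference between the sexes in response of 4.20 (SE 1.65, unadjusted p = 0.0425, edgeR adjusted p = 0.715). Sham had only 1 female library, so this interaction rests on it.

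The genes around YAP were read from 8 further lists, with 63 of 65 genes tested. Of these, 16 rose in BDL (11.8% of all genes did), 4 fell (11% of all genes) and 43 were not called. The 16 became 8 when sham replicate 2 was left out and 9 when BDL replicate 1, BDL replicate 2 or sham replicate 3 was. The 4 became 1 when BDL replicate 2 or sham replicate 1 was left out. Among TAZ, the TEAD factors and the VGLL proteins that compete with YAP for TEAD, 1 of 7 tested genes rose and 1 fell (median log2 fold change 0.48, against -0.01 for all genes). Tead1 rose. It had 22.4, 21.2, 24.3 and 23.2 CPM in BDL, against 9.05, 10.3 and 12.4 CPM in sham, and the log2 fold change was 1.12 (SE 0.18, edgeR adjusted p = 0.00550). The libraries of each group lay close together and the groups were far apart.

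Vgll4, a TEAD-binding repressor that competes with YAP, fell. It had 13.7, 10.3, 12.6 and 14.1 CPM in BDL, against 22.7, 21.6 and 21.6 CPM in sham (log2 fold change -0.81, SE 0.17, edgeR adjusted p = 0.0139). The call was lost without sham replicate 1 (adjusted p = 0.0528) or BDL replicate 2 (adjusted p = 0.0513). It was also lost without BDL replicates 2 and 3 together (edgeR adjusted p = 0.0841). Tead3 (0.69, adjusted p = 0.109) and Tead4 (1.05, adjusted p = 0.0951) were higher in every BDL library than in any sham library but did not pass, and Tead2 (-0.50, adjusted p = 0.436) overlapped. Of the 4 TEAD genes, Tead1 alone passed with edgeR, and DESeq2 also passed Tead3 (adjusted p = 0.0489) and Tead4 (adjusted p = 0.0349).

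In the Hippo kinase cascade and its scaffolds, edgeR called 1 of 14 genes higher (11.8% of all genes) and 0 lower (11%). The median of the list was 0.26. DESeq2 called 3 higher and 1 lower, against 31.9% of all genes called in either direction. The count that rose was also 3 when sham replicate 1 was left out, or BDL replicate 4, and 2 genes fell under upper quartile scaling. The one that rose was Map4k4, a kinase that can activate LATS, at 63.9, 77.7, 75.1 and 40.0 CPM in BDL, against 17.0, 26.1 and 26.5 CPM in sham. Its log2 fold change was 1.56 (SE 0.24, edgeR adjusted p = 0.00507). Lats1 averaged 64.9 ± 27.3 CPM in BDL and 52.7 ± 4.09 CPM in sham, and its log2 fold change was 0.28 (edgeR adjusted p = 0.478). Over the 18 alternatives the log2 fold change of Lats1 ran from 0.09 to 0.80, and it passed in 1 of them. Of 5 further genes for proteins that hold YAP in the cytoplasm or act on LATS beside Ajuba, edgeR called 0 (0 at an unadjusted p under 0.05, and 0 with DESeq2 or limma-voom), and their median was -0.06.

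A further 14 genes of published YAP and TAZ signatures held 6 that rose (11.8% of all genes did) and 2 that fell (11% of all genes), with a median of 0.39. The 6 became 1 when BDL replicate 2, sham replicate 2 or sham replicate 3 was left out, 2 when BDL replicate 1 was, and 3 under upper quartile scaling. The 2 became 1 when BDL replicate 1, BDL replicate 2 or sham replicate 1 was left out. Fjx1, a secreted regulator of planar polarity, had a log2 fold change of 1.36 (SE 0.21, edgeR adjusted p = 0.00447), and Asap1, an ARF GTPase-activating protein, one of 0.71 (SE 0.15, adjusted p = 0.0150). The call on Asap1 was lost in 5 of 18 alternatives (adjusted p up to 0.0795), among them leaving out sham replicate 2, sham replicate 3 or BDL replicate 2. Myof, F3, Foxf2 and Nt5e were the others that rose. Rbms3, an RNA-binding protein, moved the other way and further. It had 47.7, 46.9, 69.1 and 58.9 CPM in BDL, against 253.9, 205.2 and 195.2 CPM in sham, and fell by 2.04 on the log2 scale (SE 0.14, edgeR adjusted p = 0.000383). Ccdc80, a matrix protein, was the other gene that fell (-0.82, SE 0.18, adjusted p = 0.0188), a call lost in 5 of 18 alternatives (adjusted p up to 0.0745), among them leaving out sham replicate 1, BDL replicate 1 or BDL replicate 2. The signature was thus mixed in direction, as the 10 genes were.

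The close relatives of the members were read as well. Of 4 further CCN genes, 1 rose (11.8% of all genes did) and 1 fell (11% of all genes), with a median of -0.71. The median includes Ccn6, at 0 to 0.173 CPM with a log2 fold change of -2.495 (SE 1.36), and Ccn5, at 0.32 (SE 0.90). Ccn4, a matricellular protein also known as a WNT target, had 9.62, 13.3, 10.8 and 23.2 CPM in BDL, against 0.944, 1.09 and 1.26 CPM in sham. Every BDL library was far above every sham library, and the log2 fold change was 3.62 (SE 0.40, edgeR adjusted p = 0.00138). Ccn3 fell, with 5.34, 2.09, 2.95 and 3.13 CPM in BDL, against 7.95, 6.79 and 22.4 CPM in sham (-1.74, SE 0.49, adjusted p = 0.0419), and the call was lost in 9 of 18 alternatives, among them each of 6 single libraries left out. Of the 4 AXL relatives and ligands, edgeR called 0, with 1 (Gas6) at an unadjusted p under 0.05 and 1 called by DESeq2 and by limma-voom. Of the 2 ANKRD1 relatives, edgeR, DESeq2 and limma-voom each called 0, with 0 at an unadjusted p under 0.05 by edgeR and 1 by DESeq2. Their log2 fold changes were -0.90 and 1.78. The second value, of Ankrd2, came from levels of 0 to 0.316 CPM.

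Genes of actin filaments and of SRF, the factor whose targets often move with those of YAP when cells are under tension, held more genes that rose than any other list. Of 13 genes, 7 rose (11.8% of all genes did) and 0 fell (11% of all genes), with a median of 0.98. The 7 became 8 with DESeq2 and 4 without sham replicate 2 or BDL replicate 1. With DESeq2, without the filter on low counts, or without BDL replicate 1, 1 gene fell. Actn1, an actin crosslinker, had 123.4, 141.2, 118.3 and 74.5 CPM in BDL, against 34.7, 30.4 and 37.2 CPM in sham (log2 fold change 1.77, SE 0.22, edgeR adjusted p = 0.00239). Vcl, which links integrins to actin, had a log2 fold change of 1.35 (adjusted p = 0.00513), Cnn2 (calponin 2) one of 1.42 (adjusted p = 0.00373) and Flna (filamin A) one of 1.44 (adjusted p = 0.00678). Srf itself was 14.5 ± 1.52 CPM in BDL and 9.65 ± 1.58 CPM in sham, and its log2 fold change of 0.61 did not pass (edgeR adjusted p = 0.0649). Srf passed in 1 of the 18 alternatives. Within the list, Acta2 rose (1.56, edgeR adjusted p = 0.0208), while Cnn1 (-2.86, adjusted p = 0.0872), Myl9 (-0.09) and Tagln (-0.02) were not called. Summed smooth muscle and pericyte markers were lower in BDL, with 2 of 5 called lower, as given above. Actin genes are expressed by many cell types, and which cells gave this rise was not tested.

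**Figure D4:**
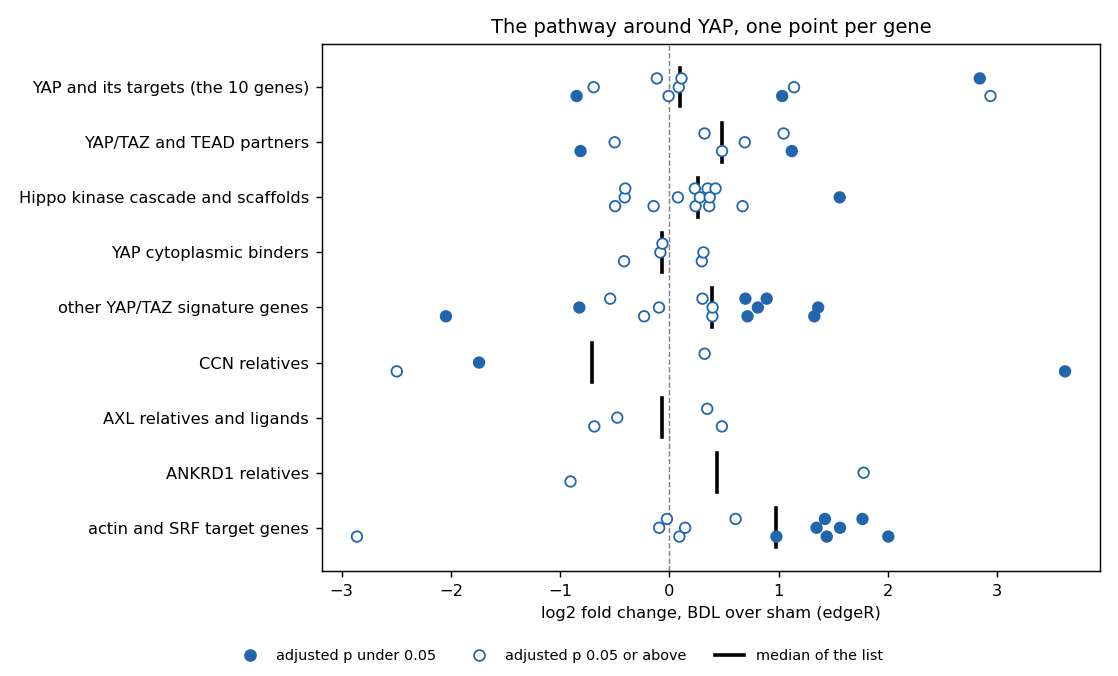
Log2 fold change of BDL over sham (edgeR) for each tested gene of the 10 genes and of 8 surrounding lists, with filled points for an adjusted p under 0.05 and a black bar for the median of each list. The actin and SRF list has the highest median (0.98), and the 10 genes spread from -0.85 to 2.94 around a median of 0.10.

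**Figure D5:**
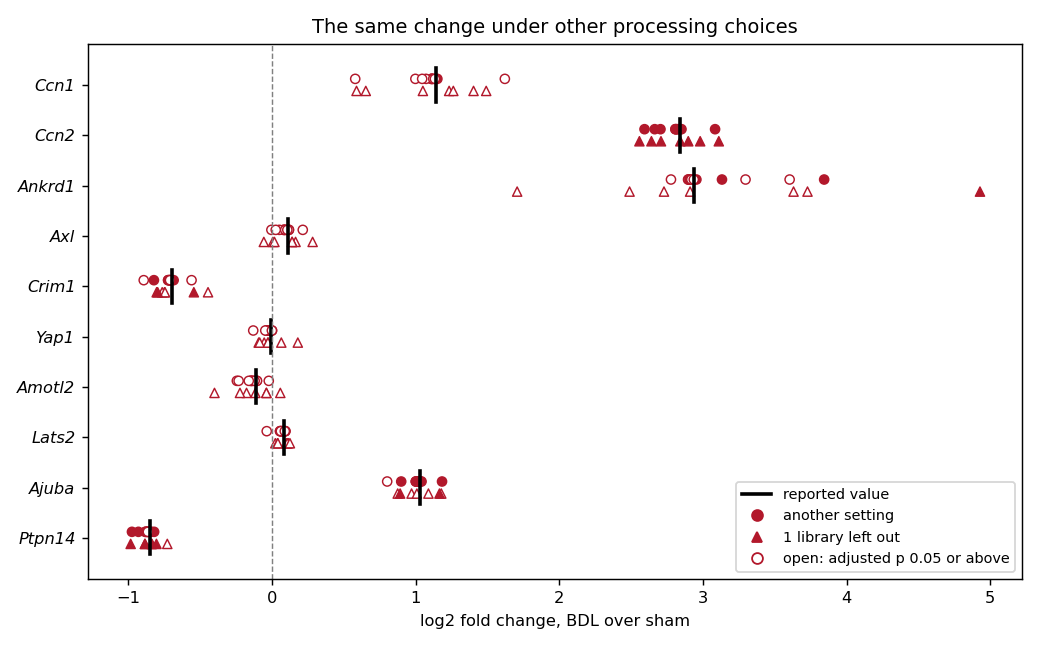
Log2 fold change of BDL over sham for each of the 10 genes under 18 alternatives to the reported analysis (black bar), with circles for another setting, triangles for a library left out, and filled marks where the adjusted p was under 0.05. Ccn2 was filled throughout, between 2.56 and 3.11, and Ankrd1 ran from 1.71 to 4.93.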

How the data were processed

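Whole EHBD tissue gave 4 BDL and 3 sham libraries, made with a SMART-Seq mRNA kit that copies polyadenylated RNA without marking its strand. Reads of overlapping genes on opposite strands are therefore mixed. As stated in the study's methods and the submitters' notes, the authors ran Salmon against a GENCODE transcriptome on GRCm39 and summarized transcripts to genes with tximeta. What was deposited are estimated counts for each gene, already whole numbers and not normalized. GENCODE mouse release M39, on this build, named 55563 of 56065 identifiers, and the other 502 held 0.0335% of the counts. Each library pair differed by more than counting noise (chi-square over degrees of freedom 202.3 or more).

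The 25209 genes summing to 10 or more counts went into edgeR 4.0.16 (R 4.3.3), with TMM scaling, the quasi-likelihood test, and terms for surgery and sex, which left 4 residual degrees of freedom. SE was derived from the F statistic as the size of the log2 fold change divided by its root, and intervals are at 95%. The study's methods used DESeq2, which was run as an alternative (1.42.0) beside limma-voom (limma 3.58.1). The other alternatives were upper quartile and RLE scaling, no filter, filterByExpr, no sex term, library sizes without acinar and hepatocyte genes, libraries thinned to the smallest total count, and libraries left out singly or in pairs. The code was tested on simulated data. Groups and sex came from the labels, and replicate numbers are names only. All 10 members are named. Of the lists, Wwtr1, Tead1 to Tead4, Lats1, Gas6 and Srf are named, with up to 4 called genes of smallest p and any called gene that moved against its list. Myof, F3, Foxf2, Nt5e, Nuak2, Acta2, Cnn1, Myl9, Tagln, Ccn5, Ccn6 and Ankrd2 were named after their values were seen. Members and lists were chosen with earlier results of these data known. Promoter windows are from GRCm39 with GENCODE canonical transcripts, and that of 1 member is not reported here.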

Additional observations from a re-analysis of the deposited data

Results flagged for a closer look

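The 4 BDL libraries were checked in each of 30 genes, and in 3 genes a library lay far from the others. Chance flags about 1 such check in 20, but all used the same 4 libraries and are not independent. Sham libraries were not checked. For Amotl2 the lowest BDL library, replicate 3, had 39.94 CPM, and the other BDL libraries lay between 49.7 and 50.65 CPM. For Ajuba the same replicate 3 had 36.22 CPM, and the others lay between 62.51 and 64.76 CPM. For Gas6 it was BDL replicate 2, with 546.4 CPM, and the others lay between 719.9 and 751.4 CPM. The gap to the nearest library was 0.911, 0.921 and 0.846 of the range of the BDL libraries for Amotl2, Ajuba and Gas6, and the critical value for 4 libraries is 0.829. Without BDL replicate 3 the call on Ajuba held.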

How the results depend on the processing

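Of the 10 genes, 2 were called higher, a count that was 4 without a filter on low counts and with DESeq2, 1 without BDL replicates 1 and 4, and 1 to 2 with 1 library left out. The count called lower, 1, was 2 under upper quartile scaling, without the filter, with filterByExpr and with DESeq2, 0 without BDL replicates 2 and 3, and 0 to 2 with 1 library left out. In the surrounding lists the 16 higher became 21 with DESeq2 and 8 to 17 with 1 library left out. The 4 lower became 7 under upper quartile scaling and with DESeq2, 1 without BDL replicates 2 and 3, and 1 to 4 with 1 library left out. Over all genes, 2976 were higher (3858 with DESeq2, 1678 to 3152 with 1 library left out). A further 2782 were lower (4188 with DESeq2, 1692 without BDL replicates 2 and 3, 1431 to 2883 with 1 library left out). DESeq2 called 1 of the 10 genes by sex, against 0 with edgeR. Changes of sign occurred only in genes that did not pass: Yap1 at 0.0007 without the filter and from -0.093 to 0.18 with 1 library left out, Amotl2 from -0.40 to 0.058 and Axl from -0.057 to 0.28 with 1 library left out, and under upper quartile scaling Axl at -0.0045 and Lats2 at -0.037. That scaling moved the median of all genes to -0.13, against -0.01 in the reported analysis. Crim1 ranged from -0.89 to -0.45 and passed in 6 of 18 alternatives, and Ptpn14 ranged from -0.98 to -0.73 and passed in 16, the other exception being the fit without BDL replicates 2 and 3 (adjusted p = 0.0592). Ajuba passed in 12, and was also lost without BDL replicates 1 and 4 (0.80, adjusted p = 0.0725). The cause was not tested. For the 20 genes of the lists named by the rule given above, 329 of 360 alternative values kept their direction and call and 0 changed sign. No paired analysis was possible because the labels give no replicate numbers shared between groups. The SE of Ccn1, 0.54, was 0.23 without BDL replicate 4.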

Other observations

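The TEAD letters GGAATG were counted in the same upstream windows of all genes tested, with no test. They stood in 11.3% of 2726 promoters of genes called higher in BDL, in 12.6% of 2365 promoters of genes called lower, and in 12% of 17015 promoters of all tested protein-coding genes. Of the 14 further YAP and TAZ signature genes, 1 held them (Nuak2, with 2 matches), against 5 of the 9 windows given in the report. In other lists they stood in 38.5% of 13 actin and SRF genes, 33.3% of 9 TEAD partners and 28.6% of 14 Hippo cascade genes. The shares were 50% of 2 ANKRD1 relatives, 25% of 4 AXL relatives and ligands, 20% of 5 cytoplasmic binders and 0% of 4 CCN relatives. A share above that of all genes was thus not particular to the members.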
